A study of Homo sapiens with 21 samples.

Results

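The 7 genes RRM1, RRM2, TYMS, TK1, DUT, UNG and DCK encode enzymes that make the building blocks of DNA or keep uracil out of it. They were chosen by gene symbol for these roles, with earlier results of these data known. All 7 were found among the 16383 genes of the deposited table. Each of the 7 passed the filter on low values, which asked for a value of 10 or more in 3 or more libraries and kept 11579 genes for testing. RNA sequencing was done on IMR90 cells, a line of human lung fibroblasts, with 3 libraries in each of 7 groups. The proliferating group received neither irradiation nor siRNA. The 6 other groups were made senescent by irradiation, transfected with 5 nM siRNA at 4 and again at 7 days from irradiation, and collected at 10 days. Their siRNA were the non-targeting controls NT3 and NT4 (titled Non targeting#3 and Non targeting#4), or siRNA against CCND1, against CDK4, against CDK6, or against CDK4 and CDK6 together, here called the dual knockdown. CCND1 encodes cyclin D1, and CDK4 and CDK6 encode the kinases it activates at the start of the cell cycle. In any comparison with proliferating cells the effects of irradiation and of transfection cannot be told apart. The labels describe no separate cultures and give no siRNA sequence, so p-values measure the spread between these libraries, which may be technical, and an effect of a reagent outside its target cannot be told apart from an effect of the target.

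Deoxynucleotides are made by reducing ribonucleotides, a step carried out by ribonucleotide reductase, whose large subunit is RRM1 and whose small subunit is RRM2 in dividing cells or RRM2B in cells outside S phase. Thymidylate synthase (TYMS) makes thymidylate from deoxyuridylate, while thymidine kinase 1 (TK1) and deoxycytidine kinase (DCK) recover nucleosides by phosphorylation. The dUTPase encoded by DUT breaks down dUTP before it can be built into DNA, and the glycosylase encoded by UNG cuts out uracil that is already there. Many of these genes are known targets of E2F transcription factors, which are held back by the retinoblastoma protein until cyclin D kinases phosphorylate it.

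The genes lie on 7 chromosomes in the GRCh38 annotation of GENCODE. RRM1 spans chr11:4094707-4138932, RRM2 spans chr2:10120698-10211725, TYMS spans chr18:657653-673578 and TK1 spans chr17:78174091-78187233 on the minus strand. DUT spans chr15:48331011-48343373, UNG spans chr12:109097597-109126725 and DCK spans chr4:70992538-71030914. Exons of TYMS share 967 bases with the antisense gene ENOSF1 and 193 with TYMSOS, those of DUT share 533 with DUT-AS1, those of RRM1 share 63 with RRM1-AS1, and those of DCK share 199 with MOB1B on its own strand. The annotation also names 8 pseudogenes of DUT, 3 of RRM2, 2 of TYMS and 2 of UNG. The strand setting and the treatment of reads that map to several places are not given in the sources used here, so reads in these shared parts may be assigned to either gene.

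The promoters of RRM2, TK1 and TYMS are shown because these 3 genes had the lowest fold changes of the 7 in the dual knockdown, and a DUT window is shown as that of a gene which fell less. Those of RRM2, TK1 and TYMS lie before the start of the MANE transcript, the reference transcript of the gene. Each is the stretch of 250 bases before an annotated start in RefSeq (GRCh38.p14), written 5′ to 3′ on the strand of the gene. Capitals mark every match, on either strand, to the word CCAAT, to the CHR word TTTGAA of cell cycle genes and its variant TTTAAA, or to an E2F-like word. The E2F-like words were TTCCCGC, the word TTGGCGC, the word TTGCCGC and the word TTCGCGC.
RRM2, chr2:10122489-10122738, plus strand: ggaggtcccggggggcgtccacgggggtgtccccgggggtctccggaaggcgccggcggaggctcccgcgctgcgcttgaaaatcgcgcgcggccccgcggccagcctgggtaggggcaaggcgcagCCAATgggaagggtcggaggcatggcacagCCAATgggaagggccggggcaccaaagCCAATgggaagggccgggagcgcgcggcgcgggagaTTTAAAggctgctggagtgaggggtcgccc
TK1, chr17:78187053-78187302, minus strand: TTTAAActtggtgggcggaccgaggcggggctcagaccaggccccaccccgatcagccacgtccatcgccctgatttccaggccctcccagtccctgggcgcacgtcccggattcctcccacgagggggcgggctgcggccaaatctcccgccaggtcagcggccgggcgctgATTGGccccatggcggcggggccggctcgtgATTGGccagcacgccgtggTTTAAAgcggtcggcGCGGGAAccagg
TYMS, chr18:657403-657652, plus strand: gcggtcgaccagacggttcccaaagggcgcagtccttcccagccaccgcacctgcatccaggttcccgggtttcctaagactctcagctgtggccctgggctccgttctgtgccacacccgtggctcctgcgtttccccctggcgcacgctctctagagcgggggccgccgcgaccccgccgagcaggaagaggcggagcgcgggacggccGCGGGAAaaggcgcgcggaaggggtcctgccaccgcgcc
DUT, chr15:48331947-48332196, plus strand: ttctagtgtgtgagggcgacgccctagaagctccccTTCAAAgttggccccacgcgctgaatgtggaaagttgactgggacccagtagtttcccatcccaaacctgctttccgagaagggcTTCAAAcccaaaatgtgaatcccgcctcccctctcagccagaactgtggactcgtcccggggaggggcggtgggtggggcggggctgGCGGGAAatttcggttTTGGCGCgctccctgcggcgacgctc
The RRM2 window holds 3 CCAAT words, which begin 123, 93 and 66 bases before the start, and TTTAAA at 30 bases. The TK1 window holds CCAAT in reverse at 77 and 46 bases, TTTAAA at 27 and 250 bases, and 1 E2F-like word at 12 bases. In the TYMS window the only match is an E2F-like word at 39 bases. The DUT window lies before a start 768 bases inside the gene from the MANE start and holds E2F-like words at 42 and 26 bases and TTTGAA at 214 and 129. None of the 3 other DUT windows in RefSeq, that of the MANE start included, held a match. RRM2 has another window there, before a start 171 bases from the MANE start. It held an E2F-like word at 192 bases and CCAAT at 249. Another TK1 window, before a start 152 bases from the MANE start, held only TTTAAA at 98 bases. The E2F-like words found thus depend on the window shown. Of 35116 RefSeq promoter windows of this length, 10.9% held at least 1 of the E2F-like words, 32.0% held CCAAT and 2.93% held 3 or more CCAAT. The word TTTAAA occurred in 11.3% and TTTGAA in 13.3% of them. These matches describe letters only. The data do not measure binding.

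Depth, as reads summed over all genes of the table, was 12892442 to 21822152 per library. Values are normalised read counts, that is, reads divided by 1 size factor per library. Each siRNA lowered its target: CCND1 was at 12.1% of the level in the 6 non-targeting libraries, CDK4 at 8.75% and CDK6 at 16.6%, and in the dual knockdown CDK4 was at 9.497% and CDK6 at 20.7%. All 8 fibroblast markers were expressed in every group, and their summed level was 386143 to 792752 over all libraries. Markers of epithelial cells summed to at most 77.9, of endothelial cells to at most 48.2 and of leukocytes to at most 17.8. The third NT3 library stood apart from the others. The standard deviation of its gene values around the group means was 0.344 on the log2 scale, against 0.193 to 0.256 in the other 20 libraries.

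RRM2, the small subunit that limits ribonucleotide reductase in dividing cells, covered the widest range of the 7 genes. Its normalised read counts were 5918, 5975 and 6208 in the proliferating libraries. They were 1449, 1176 and 1451 with NT3 and 1079.5, 1143 and 1126 with NT4, so every senescent control lay below every proliferating library. In the mean of both controls RRM2 fell to 20.4% of the proliferating level (log2 fold change -2.29, SE 0.10, limma adjusted p = 1.55e-14). The libraries are bulk RNA, so fewer cells that express a gene and less RNA per cell cannot be told apart here or below.

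Among the irradiated groups RRM2 was lowest in the dual knockdown, at 136, 179 and 155. It stood at 541, 390.4 and 556 in the CDK6 knockdown, 669, 755 and 621 in the CCND1 knockdown and 1564, 1693 and 1471 in the CDK4 knockdown. None of the dual, CDK6 or CCND1 knockdown libraries reached the lowest control library, whereas all 3 CDK4 knockdown libraries exceeded the highest control library. The log2 fold change of RRM2 against the controls was -0.85 after CCND1 knockdown (SE 0.10, limma adjusted p = 2.07e-06). CDK6 knockdown gave -1.32 (SE 0.10, limma adjusted p = 1.67e-09) and the dual knockdown gave -2.97 (SE 0.10, limma adjusted p = 5.48e-15). It rose in the CDK4 knockdown (0.36, SE 0.10, limma adjusted p = 0.0193). With NT4 alone as the control that rise was 0.49 (limma adjusted p = 0.00704). It was lost when NT3 alone served as the control (0.22, limma adjusted p = 0.181). It was also lost without the first CDK4 knockdown library (adjusted p = 0.063) or without the second (adjusted p = 0.126). The dual knockdown left RRM2 at 2.597% of its proliferating level, from 123 to 164 reads per library.

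RRM1, the large subunit that carries the catalytic site, moved far less. Its normalised read counts were 3465, 3518 and 3708 in proliferating cells, 1511, 1402 and 1539 with NT3 and 1271, 1337 and 1219.6 with NT4. It fell to 38.6% of the proliferating level in the senescent controls (log2 fold change -1.37, SE 0.05, limma adjusted p = 1.98e-15). The dual knockdown libraries, at 1071, 943 and 1086, lay below every control library, and RRM1 fell by 0.41 on the log2 scale (SE 0.05, limma adjusted p = 1.89e-06). It fell in the CDK6 knockdown as well, where it measured 1174, 1113 and 1208 (log2 fold change -0.24, SE 0.05, limma adjusted p = 0.00106), a call lost with NT4 alone as the control (-0.13, adjusted p = 0.117). In the CCND1 knockdown it measured 1259 to 1298 and in the CDK4 knockdown 1363 to 1469. Neither differed from the controls past the threshold, with 95% confidence intervals of -0.21 to 0.01 and -0.07 to 0.15 for the log2 fold change. With NT3 alone as the control RRM1 was lower in the CCND1 knockdown (-0.21, limma adjusted p = 0.0104), and with NT4 alone the difference was 0.008. RRM1 alone of the 7 genes differed past the threshold between the control siRNA. It was lower with NT4 than with NT3 (-0.22, SE 0.06, limma adjusted p = 0.0117), though not without replicate 3 of NT4 (adjusted p = 0.0623) or in a fit of these groups alone (adjusted p = 0.152). The log2 differences of the 7 genes ran from -0.28 to -0.05. That of RRM2 was -0.28 (limma adjusted p = 0.083) and passed by DESeq2 (adjusted p = 0.0385). Without replicate 2 of NT3, RRM2 (-0.38, limma adjusted p = 0.0191) and DUT (-0.28, limma adjusted p = 0.0337) passed as lower with NT4.

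RRM2B, the small subunit induced by p53 after DNA damage, went the other way from RRM2 after irradiation. It measured 838, 964 and 899 in proliferating cells, 2549, 2769 and 2176 with NT3 and 2964, 2788 and 2865 with NT4, a rise of 1.57 on the log2 scale (SE 0.06, limma adjusted p = 4.64e-15). Against the mean of both controls it was higher in the CCND1 knockdown (log2 fold change 0.37, limma adjusted p = 0.000185), the CDK4 knockdown (0.56, limma adjusted p = 3.3e-06), the CDK6 knockdown (0.18, limma adjusted p = 0.0252) and the dual knockdown (0.20, limma adjusted p = 0.0174). RRM2B was also higher with NT4 than with NT3 (0.21, limma adjusted p = 0.0408), and with NT4 alone as the control the rises in the CDK6 (0.08, adjusted p = 0.452) and dual knockdowns (0.09, adjusted p = 0.356) were lost. Per 1000 bases of transcript, proliferating cells held 1852 ± 47.02 of RRM2 and 189 ± 13.2 of RRM2B (mean ± SD, n = 3). With NT3 these levels per 1000 bases were 417 ± 48.7 and 523 ± 62.8, with NT4 343 ± 10.2 and 602 ± 18.4, and in the dual knockdown they were 48.1 ± 6.66 and 641 ± 16.96.

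TYMS, which makes thymidylate de novo, fell after irradiation and in the CCND1, CDK6 and dual knockdowns. Its normalised read counts were 1149, 1241 and 1173 in proliferating cells. With NT3 they were 444, 389 and 414 and with NT4 437, 400.0 and 365, and TYMS fell to 34.4% of the proliferating level (log2 fold change -1.54, SE 0.08, limma adjusted p = 1.53e-13). The CCND1 knockdown libraries measured 284, 262 and 236, the CDK6 knockdown libraries 209, 193 and 229.9 and the dual knockdown libraries 90.5, 97.2 and 88.1. None of these 9 libraries overlapped the controls. TYMS fell by 0.65 on the log2 scale in the CCND1 knockdown (SE 0.08, limma adjusted p = 2.55e-06), by 0.95 in the CDK6 knockdown (SE 0.08, limma adjusted p = 4.64e-09) and by 2.14 in the dual knockdown (SE 0.08, limma adjusted p = 1.2e-14). The CDK4 knockdown libraries, at 377, 395 and 392, lay among the controls (-0.07, 95% confidence interval -0.23 to 0.09, limma adjusted p = 0.599).

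ENOSF1, the antisense gene that shares exonic bases with TYMS, was examined after its values were seen. It measured 301 ± 28.6 (mean ± SD, n = 3) in proliferating cells, 197 ± 17.6 in the 6 control libraries and 218 ± 31.8 in the dual knockdown. It fell in the senescent controls (log2 fold change -0.61, limma adjusted p = 1.51e-05), rose in the CDK4 knockdown (0.49, limma adjusted p = 0.00168) and did not pass the threshold in the dual knockdown (0.14, limma adjusted p = 0.28).

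TK1, the cytosolic kinase that recovers thymidine in S phase, fell furthest of the 7 genes between proliferating and control cells. It measured 2328, 2301 and 2447 in proliferating cells, 399, 355 and 507 with NT3 and 374, 436 and 365 with NT4, which put the controls at 17.1% of the proliferating level (log2 fold change -2.55, SE 0.10, limma adjusted p = 1.62e-15). The dual knockdown libraries held 68.4, 66.6 and 71.1, from 61 to 71 reads each, which were the lowest read counts of any of the 7 genes. That is 2.91% of the proliferating level. The log2 fold change against the controls was -2.54 there (SE 0.10, limma adjusted p = 2.5e-14). TK1 measured 246, 233 and 217 in the CCND1 knockdown (-0.80, SE 0.10, limma adjusted p = 2.91e-06). In the CDK6 knockdown it measured 204, 187 and 229 (-0.97, SE 0.10, limma adjusted p = 9.57e-08). Both groups lay wholly below the controls. The CDK4 knockdown libraries, at 483, 489 and 405, overlapped them (0.18, 95% confidence interval -0.02 to 0.39, limma adjusted p = 0.227). Without the third NT3 library, whose TK1 was the highest of the controls, this difference passed the threshold (0.25, limma adjusted p = 0.0271).

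TK2, the mitochondrial thymidine kinase, rose after irradiation. It measured 452, 427 and 442 in proliferating cells, 889.7, 928 and 877 with NT3 and 716, 793 and 791 with NT4 (log2 fold change 0.91, SE 0.05, limma adjusted p = 9.36e-13). It rose in the CDK6 knockdown (0.34, limma adjusted p = 2.03e-05) and the dual knockdown (0.30, limma adjusted p = 8.74e-05). The differences in the CCND1 knockdown (0.12) and the CDK4 knockdown (-0.11) did not pass (limma adjusted p = 0.0902 and 0.146). NT4 was lower than NT3 for TK2 as well (-0.23, limma adjusted p = 0.00649). With NT4 alone as the control TK2 was higher in the CCND1 knockdown (0.23, adjusted p = 0.00835), and with NT3 alone it was lower in the CDK4 knockdown (-0.23, adjusted p = 0.00708) and the rises in the CDK6 and dual knockdowns were 0.22 and 0.18.

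DUT, which removes dUTP from the nucleotide pool, fell with irradiation and, among the knockdowns, in the dual knockdown. It measured 1266, 1333 and 1324 in proliferating cells and 435 to 598 and 429 to 483 with NT3 and NT4, a fall to 37.4% (log2 fold change -1.42, SE 0.09, limma adjusted p = 5.8e-12). The dual knockdown libraries, at 381, 348 and 377, lay below every control library (-0.40, SE 0.09, limma adjusted p = 0.000952). The 3 single knockdowns measured 405 to 531 over their 9 libraries and overlapped the controls. Their log2 fold changes were -0.11 for CCND1 (95% confidence interval -0.29 to 0.08), -0.06 for CDK4 (-0.25 to 0.13) and -0.15 for CDK6 (-0.34 to 0.04).

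UNG, the main uracil glycosylase, was the one gene of the 7 whose lowest group was not the dual knockdown. Its normalised read counts were 568, 598 and 594 in proliferating cells, 421, 411 and 464 with NT3 and 397, 405 and 357 with NT4, and it fell to 69.6% in the controls (log2 fold change -0.52, SE 0.07, limma adjusted p = 4.03e-07). The lowest levels were in the CDK4 knockdown, at 313, 288 and 279.7, below every control library. This fall (log2 fold change -0.47, SE 0.07, limma adjusted p = 3.37e-05) passed the threshold under all 21 alternatives run for it. UNG measured 326, 322 and 341 in the dual knockdown (-0.31, SE 0.07, limma adjusted p = 0.000715). It measured 340.0, 349 and 376 in the CDK6 knockdown (-0.20, SE 0.07, limma adjusted p = 0.018), where the libraries overlapped the controls and the call was lost under 4 of 21 alternatives, among them NT4 alone as the control (-0.12, adjusted p = 0.252) and replicate 1 or 2 of the CDK6 knockdown left out (adjusted p = 0.093 and 0.0617). The CCND1 knockdown, at 408, 379 and 412, was close to the controls (-0.03, 95% confidence interval -0.17 to 0.11).

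SMUG1, another glycosylase that removes uracil, did not pass the threshold between proliferating and control cells (log2 fold change 0.14, limma adjusted p = 0.131). It measured 305, 317 and 349.5 with NT3, 283, 251 and 277 with NT4 and 231, 205 and 228 in the CCND1 knockdown, where it fell (-0.42, SE 0.08, limma adjusted p = 0.000519). Its differences in the CDK4, CDK6 and dual knockdowns were -0.21, -0.20 and -0.04 (limma adjusted p = 0.085, 0.0503 and 0.705). SMUG1 was also lower with NT4 than with NT3 (-0.26, limma adjusted p = 0.0439). With NT3 alone as the control it passed as higher after irradiation (0.27, adjusted p = 0.0151) and as lower in the CDK4 (-0.34, adjusted p = 0.0106) and CDK6 knockdowns (-0.33, adjusted p = 0.00636).

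DCK, the kinase that recovers deoxycytidine and purine deoxynucleosides, fell with irradiation but passed the threshold in none of the knockdowns. It measured 798, 793 and 718 in proliferating cells, 427, 402 and 393 with NT3 and 373, 392 and 364 with NT4, 50.9% of the proliferating level in the controls (log2 fold change -0.97, SE 0.09, limma adjusted p = 2.19e-09). The dual knockdown libraries measured 313, 365 and 336. Their difference from the controls was -0.21 (95% confidence interval -0.39 to -0.03, limma adjusted p = 0.0557), and 4 of 21 alternatives put it past the threshold, among them DESeq2 (adjusted p = 0.0489), NT3 alone as the control (-0.27, adjusted p = 0.0359) and the third NT3 library left out (adjusted p = 0.0334). The other 3 differences were -0.01 for CCND1, 0.08 for CDK4 and -0.07 for CDK6. The second CDK6 knockdown library, at 298, was the lowest of the 21. DGUOK, the mitochondrial kinase for purine deoxynucleosides, measured 721, 676 and 705 in proliferating cells, 712, 638 and 1096 with NT3 and 634, 639 and 631 with NT4, with the third NT3 library above the others. It did not differ past the threshold between proliferating and control cells (0.02, limma adjusted p = 0.889). It fell in the CDK6 knockdown (-0.35, limma adjusted p = 0.013), also without the third NT3 library (-0.24, adjusted p = 0.00368) but not with NT4 alone as the control (-0.19, adjusted p = 0.271).

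**Figure D1:**
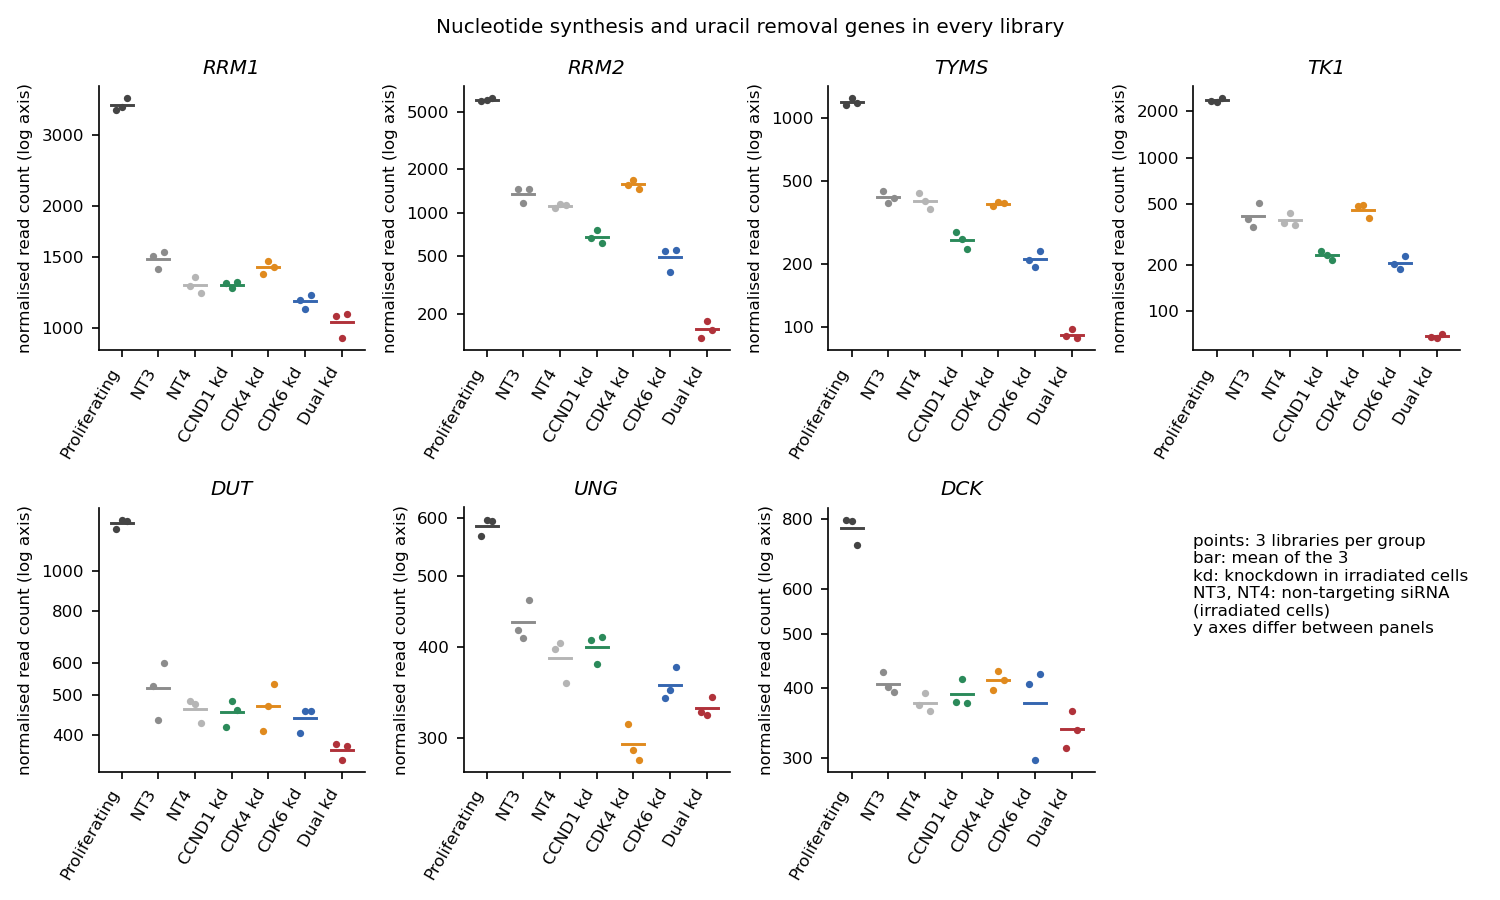
Normalised read counts (vertical log axes, which differ between panels) of the 7 genes in the 7 groups. Points are libraries, 3 per group, and bars are group means. RRM2, TYMS and TK1 drop from proliferating cells to the non-targeting controls and again to the dual knockdown (kd), while UNG is lowest in the CDK4 knockdown at 279.7 to 313.

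In the senescent controls all 7 genes were lower than in proliferating cells. Over the 11579 genes tested, 36.1% fell in that comparison and 68.6% changed in either direction, so a call by itself says little there. The sizes stood further from the rest: the median log2 fold change of the 7 genes was -1.42, against -0.03 over all tested genes, and 0.846% of tested genes had a lower fold change than TK1, 1.39% a lower one than RRM2 and 19.6% a lower one than UNG. Median centring moved the fold changes of all genes by -0.11 in this comparison, and all 7 genes still fell. Between the controls 1 of the 7 genes, RRM1, was called lower with NT4, against 13.1% of all tested genes lower and 27.8% called either way.

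The CCND1 knockdown lowered 3 of the 7 genes, RRM2, TYMS and TK1, against 14.4% of all tested genes that fell. The CDK6 knockdown lowered 5, these 3 with RRM1 and UNG, against 20.8%. The dual knockdown lowered 6, all but DCK, against 21.5%. In the CDK4 knockdown 1 of the 7 genes rose, RRM2, against 8.46% of all tested genes, and 1 fell, UNG, against 7.55%. The medians of the 7 log2 fold changes were -0.11 in the CCND1 knockdown, 0.04 in the CDK4 knockdown, -0.24 in the CDK6 knockdown and -0.41 in the dual knockdown, beside medians over all tested genes of -0.0055, 0.0028, -0.01 and 0.0031. The 4 knockdowns are set against the same 6 control libraries, so their fold changes are not independent of each other. With NT4 alone as the control the CDK6 knockdown count was 3, and with NT3 alone the CDK4 knockdown count was 1. NT3 alone raised the CCND1 knockdown count to 4, with RRM1, and the dual knockdown count to 7, with DCK. Without the third NT3 library the counts were 3 in the CCND1, 3 in the CDK4, 5 in the CDK6 and 7 in the dual knockdown.

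Markers of cycling cells moved with the genes that changed most. The 6 markers MKI67, TOP2A, CCNA2, CCNB1, CDK1 and BIRC5 were all detected in every group and none was at 0. Their summed normalised read counts were 24259 to 26483 in proliferating cells, 2914 to 3509 with NT3 and 3005 to 3141 with NT4. They were 1840.3 to 1991 in the CCND1 knockdown, 3803 to 4436 in the CDK4 knockdown, 1492 to 2062 in the CDK6 knockdown and 600.4 to 709.8 in the dual knockdown. As for RRM2, the CDK4 knockdown lay above the controls and the other 3 knockdowns below them. The part of cycling cells in the results for the 7 genes was not tested.

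**Figure D2:**
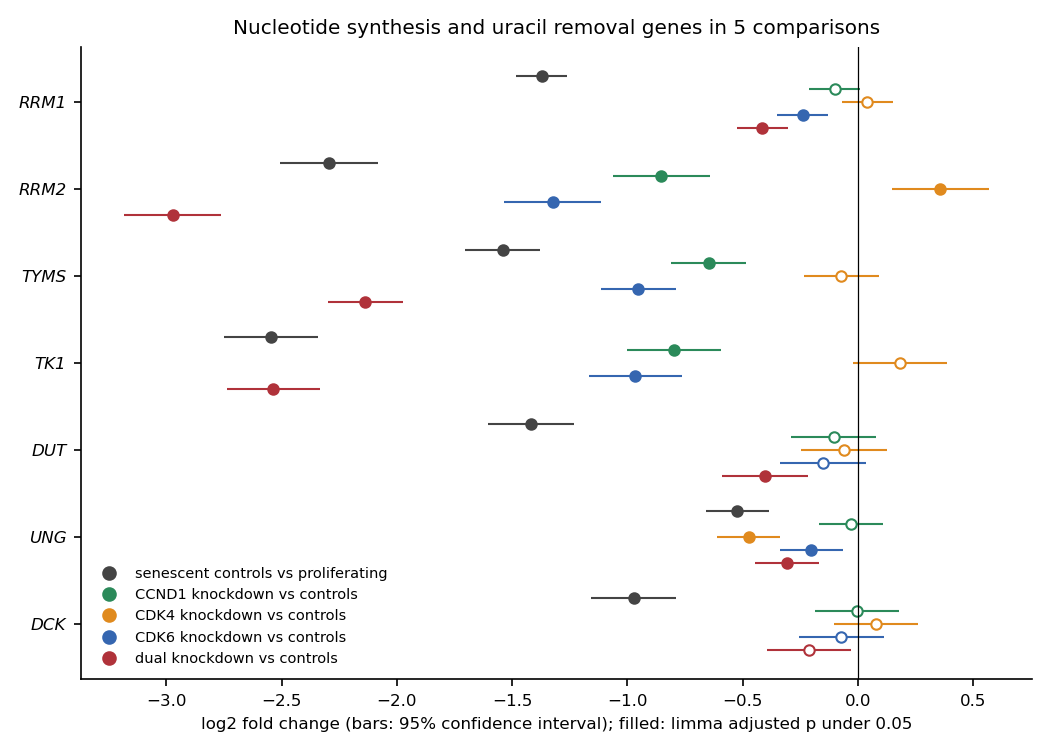
Log2 fold changes (horizontal axis) of the 7 genes in 5 comparisons, with 95% confidence intervals as bars. Filled points passed a limma adjusted p of 0.05. RRM2, TYMS and TK1 lie between -2.97 and -2.14 in the dual knockdown, while RRM1, DUT, UNG and DCK lie between -0.41 and -0.21.

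Whether the dual knockdown equals the sum of the single knockdowns was tested as a departure, the dual effect minus the CDK4 effect and the CDK6 effect on the log2 scale. RRM2, TK1 and TYMS fell below the sum. The departure was -2.004 for RRM2 (SE 0.15, limma adjusted p = 3.93e-08), -1.75 for TK1 (SE 0.15, limma adjusted p = 1.08e-07) and -1.11 for TYMS (SE 0.12, limma adjusted p = 2.56e-06). For RRM2 the single effects were 0.36 and -1.32, while the dual effect was -2.97. UNG departed upward by 0.37 (SE 0.10, limma adjusted p = 0.0313). Its single effects were -0.47 and -0.20 and its dual effect was -0.31. Over all tested genes 3.71% departed downward and 2.63% upward. The dose is given as 5 nM for the single and dual knockdowns alike, so the dose per siRNA or the total may have differed. Any part of dose in the departures was not tested. The UNG departure was lost under 10 of 27 alternatives, with adjusted p up to 0.163 with NT4 alone as the control, and it was lost without any 1 of 7 libraries (replicates 2 and 3 of the CDK4 knockdown, 1 and 2 of the CDK6 knockdown, 1 and 3 of the dual knockdown, and 2 of NT4). The departures of RRM1, DUT and DCK were -0.22, -0.19 and -0.22 (limma adjusted p = 0.127, 0.441 and 0.367). That of RRM1 passed with NT4 alone as the control (-0.32, adjusted p = 0.0377) and without the third NT3 library (-0.23, adjusted p = 0.0447), and that of DCK passed without replicate 2 of the CDK6 knockdown (-0.38, adjusted p = 0.0455). The CDK4 and CDK6 levels in the dual knockdown were 117 ± 4.41 and 968 ± 34.4 (mean ± SD, n = 3), against 108.1 ± 2.29 for CDK4 and 773 ± 54.7 for CDK6 in the single knockdowns.

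Direct comparisons between knockdowns separated the same groups. Between the CDK6 and CDK4 knockdowns, RRM1, RRM2, TYMS and TK1 were lower and UNG was higher after CDK6 knockdown, against 17.3% of all tested genes lower and 17.5% higher. The log2 differences were -1.68 for RRM2 (limma adjusted p = 4.48e-10), -1.15 for TK1 (limma adjusted p = 7.48e-08), -0.88 for TYMS (limma adjusted p = 1.31e-07), -0.28 for RRM1 (limma adjusted p = 0.00113) and 0.27 for UNG (limma adjusted p = 0.00787). Adding the CDK4 siRNA to the CDK6 siRNA lowered RRM2 (-1.65, limma adjusted p = 4e-09), TK1 (-1.57, limma adjusted p = 4.45e-09) and TYMS (-1.18, limma adjusted p = 8.81e-09). These were the 3 calls in the comparison of the dual with the CDK6 knockdown, against 6.94% of all tested genes that fell.

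The CCND1 knockdown left 6 of the 7 genes higher than the dual knockdown did, against 11.2% of all tested genes. The log2 differences were 2.12 for RRM2, 1.74 for TK1 and 1.49 for TYMS, and 0.31 for RRM1, 0.30 for DUT and 0.28 for UNG. The DUT difference (limma adjusted p = 0.0455) was lost under 9 of 16 alternatives, among them any 1 dual knockdown library, or replicate 2 or 3 of the CCND1 knockdown, left out (adjusted p up to 0.162). That of UNG was lost without replicate 3 of the CCND1 knockdown (adjusted p = 0.0537). Set against the CDK6 knockdown, the CCND1 knockdown left RRM2 (0.47, limma adjusted p = 0.00953) and TYMS (0.31, limma adjusted p = 0.0288) higher, 2 calls against 6.78%. Neither call was kept without replicate 2 of the CCND1 knockdown (adjusted p = 0.063 for RRM2 and 0.0807 for TYMS) or without replicate 2 of the CDK6 knockdown (adjusted p = 0.0776 and 0.136). The TYMS call was also lost without replicate 1 of the CCND1 knockdown (adjusted p = 0.148) or without replicate 1 of the CDK6 knockdown (adjusted p = 0.0798).

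Ranked by mean level, RRM2 and TK1 ran in the order proliferating, CDK4 knockdown, NT3, NT4, CCND1 knockdown, CDK6 knockdown and dual knockdown. For RRM2 the CDK4 knockdown, NT3 and NT4 could not be separated as neighbours (limma adjusted p = 0.181 and 0.083). Each later step passed. Outside the neighbouring steps, RRM2 was higher in the CDK4 knockdown than with NT4 (0.49, limma adjusted p = 0.00704). For TK1 the same 3 groups could not be separated as neighbours, nor could the CCND1 and CDK6 knockdowns (limma adjusted p = 0.395). TYMS had NT3, NT4 and the CDK4 knockdown side by side at 416 ± 27.5, 401 ± 35.95 and 388 ± 9.54 (mean ± SD, n = 3), then the CCND1, CDK6 and dual knockdowns, each below the one before it past the threshold. For RRM1, DUT, UNG and DCK only the step from proliferating cells to the next group passed, and no neighbouring irradiated groups differed past the threshold. UNG ended with the dual knockdown at 329.7 ± 10.3 and the CDK4 knockdown at 294 ± 17.6, a step of 0.17 on the log2 scale (limma adjusted p = 0.104). Of all tested genes 67% differed between proliferating cells and NT3, 62.7% between proliferating cells and the CDK4 knockdown, 19.3% between NT4 and the CCND1 knockdown, 23.3% between the CDK4 and CCND1 knockdowns, 12.2% between the CCND1 and CDK6 knockdowns and 13% between the CDK6 and dual knockdowns.

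Against proliferating cells, which lacked both irradiation and siRNA, the dual knockdown left RRM2 at 2.597%, TK1 at 2.91% and TYMS at 7.74% of the mean proliferating level. DUT stood at 28.2%, RRM1 at 29.00%, DCK at 43.9% and UNG at 56.2%. All 7 falls passed the threshold, against 32.9% of all tested genes that fell. Median centring moved the fold changes of this comparison by -0.13, and the 7 genes still fell.

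Ratios between paired enzymes were taken within each library, so that the scaling between libraries nearly cancels, and were not divided by transcript length. Their tests pooled the NT3 and NT4 libraries, although RRM1, RRM2B, TK2 and SMUG1 differed between these controls past the threshold. The RRM2 to RRM1 ratio was 1.71, 1.698 and 1.67 in proliferating cells, 0.959, 0.839 and 0.943 with NT3 and 0.8495, 0.855 and 0.924 with NT4. It was 0.128, 0.191 and 0.144 in the dual knockdown, so the RRM2 message fell further than that of RRM1. Relative to the controls the log2 ratio differed by -0.75 in the CCND1 knockdown, 0.32 in the CDK4 knockdown, -1.08 in the CDK6 knockdown and -2.56 in the dual knockdown. In each of these the libraries did not overlap, which gave the smallest p that 84 splits allow in an exact two-sided permutation test, 0.0119, or 0.0175 after adjustment over the 25 ratio tests.

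The RRM2 to RRM2B ratio, between the small subunits, fell after irradiation and again in 3 of the 4 knockdowns. It was 7.06, 6.19 and 6.898 in proliferating cells, 0.569, 0.425 and 0.667 with NT3 and 0.364, 0.4103 and 0.393 with NT4, and the dual knockdown libraries stood at 0.0459, 0.0574 and 0.0509. The difference of log2 ratios was -3.87 between the controls and proliferating cells and -3.17 between the dual knockdown and the controls (exact permutation p = 0.0119 for both). The CDK4 knockdown, where both genes rose, did not pass the threshold for this ratio (-0.20, exact permutation p = 0.369). The TK1 to TK2 ratio fell from 5.15, 5.38 and 5.53 in proliferating cells to 0.449, 0.384 and 0.579 with NT3 and 0.523, 0.5503 and 0.463 with NT4, and to 0.0647, 0.0691 and 0.0716 in the dual knockdown. Its log2 differences from the controls were -0.91 in the CCND1, -1.30 in the CDK6 and -2.83 in the dual knockdown (exact permutation p = 0.0119 for each), and 0.30 in the CDK4 knockdown (exact permutation p = 0.0833).

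The UNG to SMUG1 ratio rose in the CCND1 knockdown and fell in the CDK4 knockdown, with a narrow call in the dual knockdown. It was 2.21, 2.03 and 2.32 in proliferating cells, 1.38, 1.297 and 1.33 with NT3 and 1.404, 1.61 and 1.29 with NT4. The CCND1 knockdown lay above all controls at 1.77, 1.84 and 1.81, a log2 difference of 0.39 (exact permutation p = 0.0119), with lower SMUG1 and UNG near the controls. The CDK4 knockdown lay below all controls at 1.16, 1.16 and 1.13 (-0.26, exact permutation p = 0.0119). The dual knockdown libraries, at 1.11, 1.04 and 1.31, overlapped the controls (-0.26, exact permutation p = 0.0357, 0.0496 after adjustment). In the CDK6 knockdown the log2 difference was 0.001. The DCK to DGUOK ratio fell after irradiation (log2 difference -0.99, exact permutation p = 0.0119), and no knockdown moved it past the threshold. Of the 25 ratio tests 18 had an adjusted p under 0.05, a count of 14 to 18 when any 1 library was left out and of 16 without the third NT3 library. No share over other gene pairs was computed, so whether this count or the lack of overlap is unusual is not known. Among single tested genes 68.6% were called between the controls and proliferating cells.

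**Figure D3:**
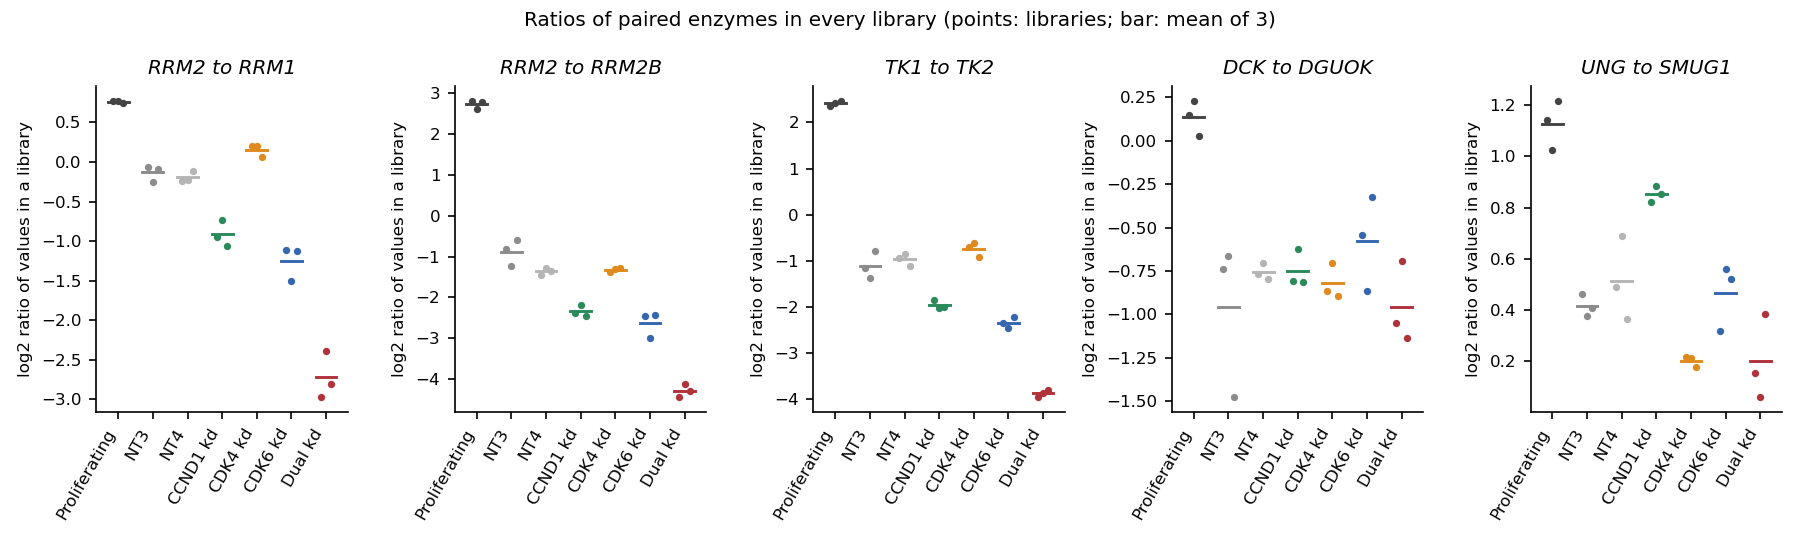
Log2 ratios of normalised read counts within each library (vertical axes, which differ between panels) for 5 enzyme pairs. Points are libraries, 3 per group, and bars are group means. The RRM2 to RRM1, RRM2 to RRM2B and TK1 to TK2 ratios are lowest in the dual knockdown (kd), at mean log2 ratios of -2.72 ± 0.30, -4.29 ± 0.16 and -3.87 ± 0.08 (SD, n = 3).

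The wider supply of deoxynucleotides was followed in 24 partner genes. Between proliferating and control cells 8 rose, 11 fell and 5 did not pass, with a median log2 fold change of -0.13 beside -0.03 over all tested genes, of which 32.6% rose and 36.1% fell. SHMT1, a folate enzyme of thymidylate synthesis, fell by 2.34 on the log2 scale (limma adjusted p = 3.81e-12). SAMHD1, which breaks down deoxynucleotides, rose (1.07, limma adjusted p = 4.7e-08), as did TYMP, which degrades thymidine (1.91, limma adjusted p = 4.51e-09). CMPK2, a mitochondrial nucleotide kinase known as an interferon-induced gene, measured 0.873, 4.26 and 0 in proliferating cells, 217, 140.5 and 206 with NT3 and 92.4, 132 and 134 with NT4. No fold is given for it there because the proliferating libraries held at most 4 reads.

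Dual knockdown raised 4 of the 24 and lowered 8 (median -0.11, beside 0.0031 over all tested genes, of which 22.5% rose and 21.5% fell). CMPK2 fell to 11.04, 5.46 and 15.02 (-3.79, limma adjusted p = 4.66e-08). SHMT1 (-1.06, limma adjusted p = 3.6e-06) and SAMHD1 (-1.01, limma adjusted p = 4.12e-07) fell too. SAMHD1 measured 578, 613 and 462 there and 536, 502 and 543 in proliferating cells (log2 difference 0.05, limma adjusted p = 0.739).

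Counts of these 24 genes in the single knockdowns were 3 up and 4 down for CCND1, 2 up and 3 down for CDK4, and 2 up and 11 down for CDK6. Of all tested genes 16.7% rose and 14.4% fell in the CCND1 knockdown, 8.46% and 7.55% in the CDK4 knockdown, and 21.1% and 20.8% in the CDK6 knockdown, so the counts for CCND1 and CDK4 lay near these shares. CMPK2 fell in the CCND1 (-1.68, limma adjusted p = 0.00177) and CDK6 knockdowns (-2.21, limma adjusted p = 6.75e-05). SAMHD1 fell in the CCND1 (-0.44, limma adjusted p = 0.00689) and CDK6 knockdowns (-0.66, limma adjusted p = 0.000103) and did not pass in the CDK4 knockdown (0.04, limma adjusted p = 0.854). With NT4 alone as the control its fall in the CCND1 knockdown was lost (-0.34, adjusted p = 0.0896). RRM2B departed downward from the sum of the single knockdowns (-0.55, limma adjusted p = 0.00118).

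Among genes of ribonucleotide synthesis, all 5 pyrimidine genes fell after irradiation (median -0.97), against 36.1% of all tested genes, led by CAD, which carries the first 3 steps of the pathway (-1.21, limma adjusted p = 4.53e-12). Of 17 purine genes 13 fell and 3 rose, beside 36.1% and 32.6% of all tested genes (median -0.63, against -0.03 over all tested genes), with PFAS furthest down (-1.68, limma adjusted p = 1.45e-11). In the dual knockdown 1 of the 5 pyrimidine genes rose and 1 fell, beside 22.5% and 21.5% of all tested genes. These counts lay near the shares. CTPS1, a CTP synthase, fell (-0.46, limma adjusted p = 1.51e-08) while its paralog CTPS2 rose (0.56, limma adjusted p = 2.79e-06). CTPS2 was higher with NT4 than with NT3 (0.54, limma adjusted p = 6.21e-05), and with NT4 alone as the control its rise was 0.28 (adjusted p = 0.0122). Of the 17 purine genes 6 fell and 4 rose (median -0.10), beside 21.5% and 22.5% of all tested genes. PNP, which splits purine nucleosides, fell in the dual knockdown (-0.96, limma adjusted p = 2.08e-09) and PRPS1, which makes the ribose donor, fell in the CDK4 knockdown (-0.50, limma adjusted p = 1.91e-05). The log2 fold changes of the pyrimidine genes in the CCND1 knockdown ran from -0.11 to 0.18 and none passed by limma. They gave 1 up and 1 down for CDK4 and 1 up and 2 down for CDK6. The purine genes gave 3 up and 3 down for CCND1, 2 up and 1 down for CDK4 and 1 up and 5 down for CDK6. Of all tested genes 16.7% rose and 14.4% fell in the CCND1 knockdown, and 8.46% and 7.55% in the CDK4 knockdown. In the CDK6 knockdown 21.1% rose and 20.8% fell. The counts of these lists were not tested against the shares.

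Base excision repair, which completes the repair that UNG begins, was followed in 19 genes. In the senescent controls 13 fell and 1 rose, beside 36.1% and 32.6% of all tested genes (median -0.62, against -0.03 over all tested genes). NEIL3, a glycosylase expressed in dividing cells, fell by 2.78 on the log2 scale (limma adjusted p = 7.23e-12), FEN1, a flap nuclease, by 1.77 (limma adjusted p = 5.13e-15) and PARP1, a sensor of strand breaks, by 1.54 (limma adjusted p = 7.15e-16). Dual knockdown lowered 7 and raised 2, beside 21.5% and 22.5% of all tested genes (median -0.13). Those that fell included NEIL3 (-1.49, limma adjusted p = 6.77e-07) and LIG1, a DNA ligase (-0.65, limma adjusted p = 1.1e-05). The CDK4 knockdown called 1 of the 19, where 8.46% of all tested genes rose and 7.55% fell. TDG, which removes uracil and thymine from mispairs with guanine, rose there (0.58, limma adjusted p = 5.06e-06). TDG also rose in the dual knockdown (0.58, limma adjusted p = 5.94e-07). The CCND1 knockdown lowered 4 and raised 1, where 14.4% of all tested genes fell and 16.7% rose. The CDK6 knockdown called 9, all of them lower, where 20.8% fell.

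Of the APOBEC3 cytidine deaminases, which make uracil in DNA from cytosine, 3 were tested. APOBEC3B measured 438, 455 and 451 in proliferating cells, 63.3, 50.4 and 57.04 with NT3 and 44.5, 50.6 and 41.4 with NT4, a fall of 3.12 on the log2 scale (limma adjusted p = 1.55e-12). The dual knockdown brought it to 5.52, 5.46 and 5.01, which is 5 reads in each library (-3.03, limma adjusted p = 2.11e-11). APOBEC3C was higher in the mean of the controls than in proliferating cells (0.30, limma adjusted p = 1.25e-05). It was higher with NT4 than with NT3 (0.56, limma adjusted p = 2.22e-07), and with NT3 alone the difference from proliferating cells was 0.02 (adjusted p = 0.757). APOBEC3G rose after irradiation (0.58, limma adjusted p = 0.034) and fell in the dual knockdown (-0.84, limma adjusted p = 0.00602). Both calls were lost with NT4 alone as the control (adjusted p = 0.234 and 0.0688), and the former without the third NT3 library (adjusted p = 0.075).

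**Figure D4:**
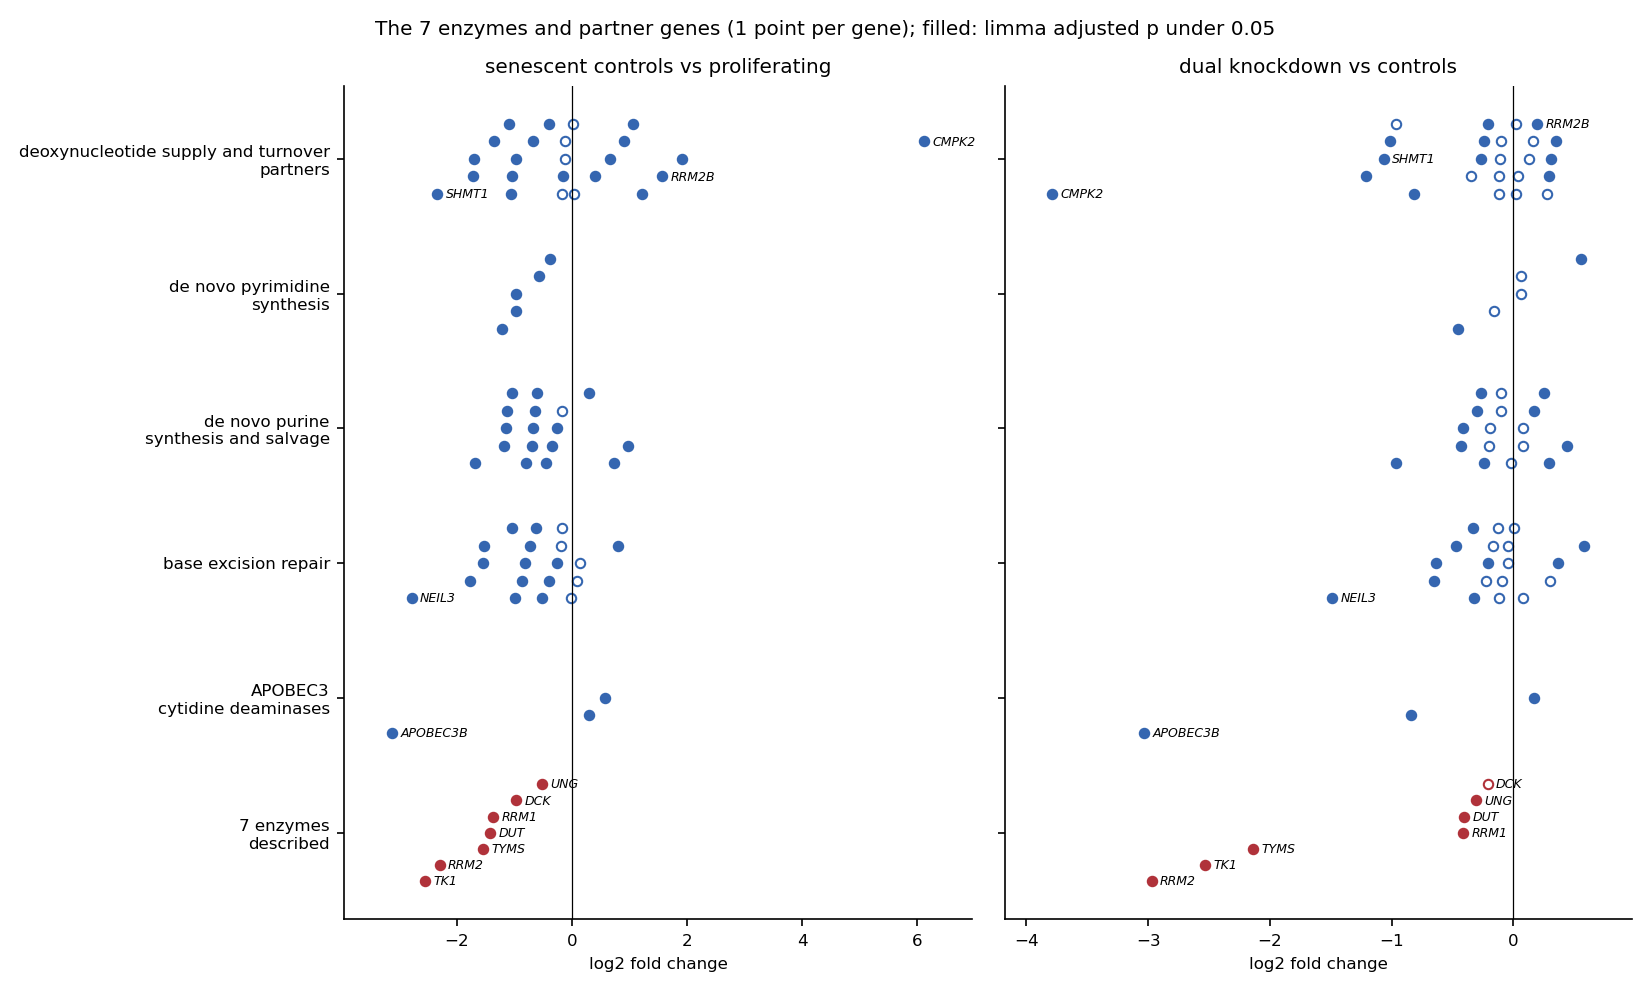
Log2 fold changes (horizontal axes) of 5 partner lists and of the 7 genes, 1 point per gene and filled where the limma adjusted p was under 0.05, in the senescent controls against proliferating cells (left) and the dual knockdown against the controls (right). All 5 pyrimidine genes and all 7 enzymes lie below 0 on the left, and RRM2, TK1, TYMS, CMPK2 and APOBEC3B stand apart on the right. The position of CMPK2 on the left rests on at most 4 reads per proliferating library.

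The tested genes whose pattern over the 7 groups was nearest to each member were found by the root mean square difference of group mean log2 values, each gene centred on its own mean. Nearest to RRM2 were CLSPN, CDC45 and PCLAF, at 0.131, 0.132 and 0.148 log2 units, against a median of 1.52 over all tested genes. Nearest to TK1 were CDK1, SPAG5 and KIF14 (0.08596, 0.117 and 0.127), and nearest to TYMS were CENPK, PTTG1 and CDT1 (0.2098, 0.225 and 0.226). The gene nearest to DUT was RRM1, at 0.0565 log2 units, and only TEX30 (0.0536) lay nearer to RRM1. Next to these came DNAJC9 for RRM1 (0.0673), while DUT lay near DNAJC9 (0.0756) and RMI2 (0.0763). UNG lay near INIP (0.0456), LDHB (0.0721) and SRF (0.0747), and DCK near PLEKHO1 (0.0592), MDM1 (0.0645) and CNOT10 (0.0649). Within the 7 genes RRM2 and TK1 were 0.211 apart and TK1 and TYMS 0.412, whereas RRM2 and UNG were 1.33 apart. The medians over all tested genes were 1.44 for TK1, 1.06 for TYMS, 0.59 for DUT, 0.58 for RRM1, 0.42 for DCK and 0.37 for UNG. Genes were not scaled for the size of their changes, so a distance reflects size as well as order. These distances rest on 7 group means from 21 libraries and carry no test.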

How the data were processed

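The authors deposited 1 table of normalised read counts, a signal per gene and library, with no methods in its header. Per the submitters' processing notes, Trimmomatic 0.38.1, HISAT2 2.2.1, featureCounts 2.0.3, FastQC 0.74, MultiQC, DESeq2 2.11.40.8 and the builds hg38 and GRCh38 were used. The annotation, strand setting and handling of multi-mapped reads are not given in the sources used here. In each library 100% of values were whole multiples of 1 step (tolerance 0.01), so reads could be recovered for the count models. The table lists 16383 genes, 19 without a symbol.

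After adding a pseudocount of 1, log2 values were fitted in limma 3.58.1 (trended empirical Bayes, R 4.3.3) by 1 model of 7 group means. It covered the 11579 genes that reached 10 in 3 or more libraries. Fold changes are on this log2(value + 1) scale, which understates the change of low genes. Tests were two-sided, with Benjamini-Hochberg adjustment over all tested genes within each of 12 comparisons and a threshold of 0.05. Controls are the mean of NT3 and NT4. The column names carry groups but no replicate number, so library numbers follow column order and serve as names only. Ratios were compared by exact permutation over 84 splits.

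Every comparison names the 7 genes. From each partner list at most 3 genes per comparison are named, those past the threshold with the largest absolute log2 fold change. RRM2B, TK2, DGUOK, SMUG1 and SAMHD1 are named besides as counterparts. ENOSF1, and TDG in the dual knockdown, were added after their values were seen. The values of 1 listed gene are not reported here. The 7 genes and the lists were chosen with earlier results of these data known. The list members NEIL2, APOBEC3A, APOBEC3D, APOBEC3F and APOBEC3H were not used here. Locations come from GENCODE, promoters from RefSeq GRCh38.p14, where all 7 symbols matched. The fits were tested on simulated data. The analysis was repeated with the pseudocount at 0.1 or 10, without the filter or with a mean of 100 required, after median centring or quantile normalization, and with the compared groups alone. It was also repeated with edgeR 4.0.16 and DESeq2 1.42.0 on the recovered reads, with NT3 or NT4 alone, without each library and, chosen after seeing the data, with a block. The partner genes named were refitted with NT3 or NT4 alone and without the third NT3 library, also chosen after seeing the data.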

Additional observations from a re-analysis of the deposited data

Results flagged for a closer look

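The effect of the CDK4 siRNA differed with and without the CDK6 siRNA for 4 of the 7 genes. This was tested in limma by the dual effect minus both single effects, with adjustment over all tested genes. Among all of these 3.71% departed downward and 2.63% upward. The difference between the effects was -2.004 for RRM2 (adjusted p = 3.93e-08), -1.11 for TYMS (adjusted p = 2.56e-06), -1.75 for TK1 (adjusted p = 1.08e-07) and 0.37 for UNG (adjusted p = 0.0313), on the log2 scale. Without the CDK6 siRNA the CDK4 siRNA moved RRM2 by 0.36, and with it by -1.65. For UNG the corresponding effects were -0.47 and -0.11, so the sign of the difference was opposite to that of the other 3 genes. The UNG difference was lost under 10 of 27 alternatives, with adjusted p up to 0.163.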

How the results depend on the processing

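The falls of RRM2, TYMS and TK1 in the CCND1, CDK6 and dual knockdowns, and their departures from the sum, passed the threshold under every alternative run, as did the fall of UNG in the CDK4 knockdown and all 7 falls after irradiation. Of 1582 alternative values of single genes, 1506 kept direction and side of the threshold, 38 lost the threshold, 16 gained it and 22 changed sign. None of the sign changes had a value past the threshold. The controls differed in 1 gene, in 0 with the compared groups alone, in 2 by DESeq2 and in 0 to 3 with a library left out. The CDK4 knockdown called 2, 1 with NT3 alone and 1 to 3 with a library left out. The CDK6 knockdown called 5, 3 with NT4 alone and 4 to 6 with a library left out. CCND1 against CDK6 knockdown called 2, 1 with the compared groups alone and 0 to 2 with a library left out; the cause of these changes was not tested.

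The replicate numbers of the labels could not serve as a block, because the columns do not carry them. The irradiated columns fall into 3 series of 6 consecutive numbers. Deviations correlated by -0.11 to 0.10 over 45 pairs within a series (median 0.037). Between series they correlated by -0.14 to 0.16 over 90 pairs (median -0.017). Correlations this weak cannot show whether a series pairs the libraries, and the main fit assumed no pairing. With the series as a replicate block, CCND1 against CDK6 knockdown called 1, and the UNG departure and the DUT difference between CCND1 and dual knockdown were lost (adjusted p = 0.0614 and 0.0676).

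Signs turned for DCK in the CCND1 knockdown (0.00827 with median centring, 0.0166 with quantile normalization, 0.0028 by edgeR, 0.0518 with NT4, -0.052 to 0.0211 with a library left out), for RRM1 (0.00796) and UNG (0.0504) in the CCND1 knockdown and DUT in the CDK4 knockdown (0.0178) with NT4 alone, and for RRM1 in the CDK4 knockdown with NT3 alone (-0.0679). With a library left out the values that crossed 0 ran from -0.203 to 0.0532 for TK1 and -0.119 to 0.0103 for TYMS between controls, -0.0584 to 0.00797 for UNG in the CCND1, -0.152 to 0.0336 for DUT in the CDK4 and -0.166 to 0.0875 for DCK in the CDK6 knockdown. Between CDK6 and CDK4 knockdown they ran from -0.184 to 0.00157 for DUT and -0.245 to 0.00849 for DCK, and between CCND1 and CDK6 knockdown from -0.0136 to 0.102 and -0.0926 to 0.161. Among ratios, DCK to DGUOK ran from -0.0149 to 0.147 in the CCND1 and -0.0884 to 0.0736 in the CDK4 knockdown, and UNG to SMUG1 in the CDK6 knockdown from -0.046 to 0.0758, and -0.000424 at a pseudocount of 10. With 3 libraries per group, small differences such as those of DCK could not be resolved. Of 147 values of partner genes refitted with NT3 alone, NT4 alone or without the third NT3 library, 128 kept their direction and call, 8 lost and 5 gained a call. The other 6 changed sign without passing in the main analysis: TK2 (0.000342) in the CDK4 knockdown, SMUG1 (0.0878) in the dual knockdown and DGUOK (-0.141) after irradiation with NT4 alone, SAMHD1 (-0.0624) in the CDK4 knockdown with NT3 alone, and DGUOK (-0.0981) and SAMHD1 (-0.0548) in these comparisons without the third NT3 library.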
